A study of Mus musculus with 9 samples.

Results

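Epithelial cells hold together and seal the space between them with tight junctions, adherens junctions and desmosomes, and a set of 42 genes covering these structures was followed here in mouse mammary tissue. The set was a fixed list of gene symbols. It held 12 claudins, 4 other tight junction membrane proteins, 3 tight junction scaffolds, the adhesion molecule Epcam, 3 desmosomal cadherins, 7 further desmosomal genes including the tetraspan protein Perp, 3 adherens junction genes, 3 polarity genes and 6 regulators of epithelial identity. All 42 were measured among 22180 named genes, each by the probe set with its single symbol and the highest mean, and 41 passed the filter on low values together with 17478 genes in all. The gene that did not pass was Cldn18, a claudin best known from stomach and lung, at 4.61 to 5.11 on the log2 scale over the 9 arrays.

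The mice were 9 FVB females, each giving tissue for a single Affymetrix Mouse Gene 2.0 ST array, and each of the 3 groups held 3 of them. Normal mammary glands came from littermates with wild-type Wnt1, collected at 533 to 556 days of age. The tumours came from Wnt1+/- MMTV-Wnt1 mice, in which a viral promoter active in mammary epithelium drives Wnt1, and were recorded as non-metastatic (collected at 222 to 354 days) or metastatic (281 to 300 days). Mice of all groups drank 6% sucrose with 200 ug/ml doxycycline from 6 weeks of age, and tumours were taken at 20 mm. Tumour status therefore cannot be told apart from age at collection or from Wnt1 genotype in any comparison with normal gland. Values are log2 units, so a difference of 1 is a doubling, and each fold below is the size of such a difference on a linear scale. RNA came from whole tissue, in which fewer cells of a type and less RNA per cell cannot be told apart.

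Claudins form the strands of tight junctions, some as barriers and some as channels for ions, and occludin, tricellulin and the JAM proteins accompany them. In the mammary gland these junctions lie between luminal cells and close the milk space from the tissue. Desmosomes anchor keratin filaments and are most abundant in stratified epithelia such as skin, although both mammary layers have them. The Grhl and Ovol transcription factors and the Esrp splicing factors are known to maintain epithelial gene expression.

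The second normal gland (normal gland 2) was unlike the first and the third, and many of these genes were affected. Differentiated epidermis markers averaged 9.59 on that array against 5.68 and 5.72 in normal glands 1 and 3, with keratin 10 at 12.17 against 6.23 and 6.49. Skeletal muscle markers averaged 9.76 there against 5.83 and 6.09. The mean of 8 genes shared by simple epithelia (such as Cdh1, Krt8 and Krt18) was 8.88 on that array against 9.83 and 10.19. For the members that this array moved most, the difference without it is also given. Array medians lay between 5.80 and 5.94. Adipocyte markers, the mark of the fat pad around the gland, had a mean of 11.14 to 12.19 in normal glands and 6.63 to 8.08 in tumours, and 10 of 10 tested fell in each tumour group. Endothelial markers past the threshold fell as well, 5 of 10 in non-metastatic and 3 of 10 in metastatic tumours. Of all genes tested, 7.6% and 6% fell. The part of these shifts in tissue make-up in the differences below was not tested.

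Most of the junction genes lay higher in both tumour groups than in normal gland, and none passed the threshold between the tumour groups. In non-metastatic tumours against normal gland, 8 of the 41 tested members rose (limma, adjusted p under 0.05) and 1 fell, beside 11.2% and 7.6% of all genes tested. The members that rose were Dsc2, Marveld2, Dsg2, Cldn4, Epcam, Esrp1, F11r and Ctnnd1. In metastatic tumours, 6 rose and 1 fell, beside 7.35% and 6% of all genes; the 6 were Dsc2, Cldn4, Grhl2, Pard3, Jup and Ovol2. The gene that fell was Cldn15 in both. These comparisons share the 3 normal glands. The median difference of the 41 members was 0.60 in non-metastatic and 0.77 in metastatic tumours, beside 0.05 and 0.04 over all genes, and 34 and 36 members had a positive difference, beside 55.6% and 55.2% of genes. These medians use all 3 normal glands, and medians without normal gland 2 are not given here. Without that array some members had smaller differences, such as Cldn7 (1.00 to 0.22 in metastatic tumours). Others had larger ones, such as Dsp (1.22 to 2.25). The size of the medians, and their order between the tumour groups, may therefore rest on that array. All 3 tumours lay above all 3 normal glands for 16 members in the non-metastatic and 17 in the metastatic group (21.9% and 23.2% of genes), and below for 2 and 1 (14.3% and 15.3% of genes). With both tumour groups set together against normal gland, 13 members rose, beside 13.6% of genes, and Cldn15 alone fell, beside 9.13%. The number that rose in non-metastatic tumours changed to 1, 5 and 15 when normal glands 1, 2 and 3 were left out in turn, to 4 and 1 when non-metastatic tumours 1 and 2 were, and to 4 and 3 when metastatic tumours 1 and 3 were. In metastatic tumours, leaving out normal gland 1 gave 1, normal gland 3 gave 10, and metastatic tumours 1, 2 and 3 gave 1, 2 and 1. Without normal gland 2 the members that rose in metastatic tumours were Dsc2, Dsg2, Jup and Perp. Cldn4, Grhl2, Pard3 and Ovol2 did not pass there. For both groups together, normal glands 1 and 2 gave 5 and 8, non-metastatic tumour 2 gave 7, and metastatic tumours 1 and 3 gave 8 and 6. Centring each array on its median gave 15 members higher in non-metastatic and 10 in metastatic tumours. The shares of all genes with an array left out or after centring are not given here, so these moved counts do not set members apart from other genes.

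**Figure D1:**
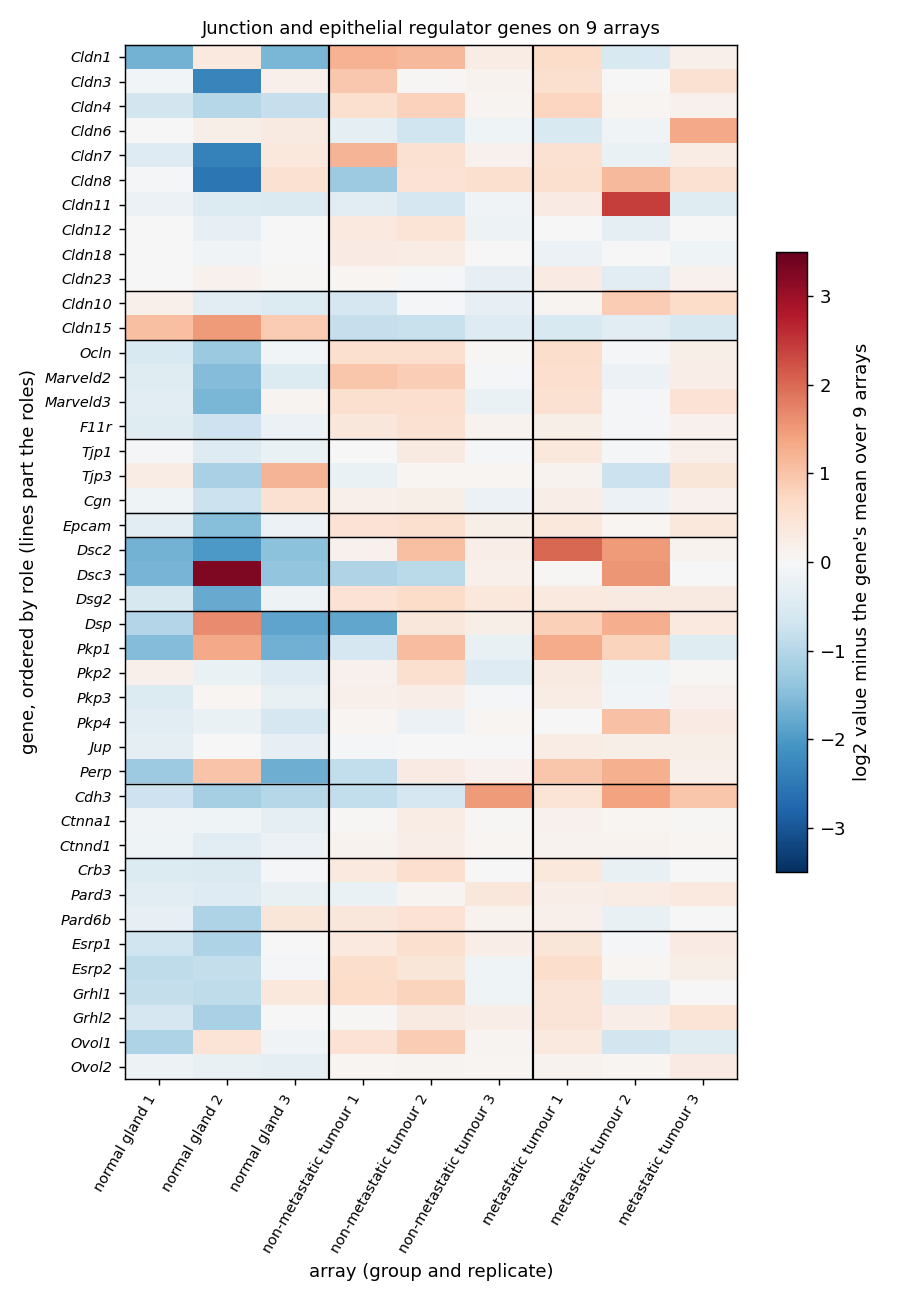
Values of the 42 genes (rows, ordered by role) on the 9 arrays (columns, by group and replicate), each as the log2 value minus the mean of the gene over the 9 arrays. Most rows are above their mean in the 6 tumours, Cldn15 is above its mean in the 3 normal glands, and Dsc3, Dsp, Pkp1 and Perp are high in normal gland 2 alone among the normal glands.

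Cldn15, a claudin that forms pores for small cations and is best known from the intestine, was the only member that fell. Its log2 level was 7.25, 7.69 and 7.10 in normal glands 1 to 3, 5.38, 5.43 and 5.75 in the non-metastatic tumours and 5.67, 5.83 and 5.64 in the metastatic tumours. All 3 normal glands lay above all 6 tumours, whose values were below the medians of their arrays. The difference was -1.83 ± 0.17 (SE; 3.55-fold, adjusted p = 0.0016) in non-metastatic tumours and -1.63 ± 0.17 (3.10-fold, adjusted p = 0.0028) in metastatic tumours. This call was kept under each of 18 other settings in both comparisons, including each array left out. The other channel-forming claudin of the set, Cldn10, known from kidney and from glands, had its highest values in metastatic tumours. Its level was 6.39, 7.18 and 6.93 there against 5.70, 6.25 and 6.01 in non-metastatic tumours and 6.47, 5.93 and 5.80 in normal glands. The metastatic tumours lay above the non-metastatic ones without overlap, and the difference of 0.85 ± 0.26 did not pass the threshold (adjusted p = 0.88).

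Cldn4, which tightens the barrier in many epithelia, was the sealing claudin that rose. Its level was 8.90, 8.54 and 8.75 in normal glands, 10.12, 10.36 and 9.65 in non-metastatic tumours and 10.30, 9.61 and 9.70 in metastatic tumours. Every tumour was above every normal gland. The difference was 1.31 ± 0.24 (2.48-fold, adjusted p = 0.012) in non-metastatic tumours, a call kept under 18 of 18 settings. In metastatic tumours it was 1.14 ± 0.24 (2.20-fold, adjusted p = 0.022). That call needed each of 4 arrays: it was lost when normal gland 1 (adjusted p = 0.056) or 2 (0.071), or metastatic tumour 1 (0.063) or 3 (0.058), was left out.

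RefSeq promoter windows of 300 bases, from 250 before to 50 after an annotated start, were available for 26 of the 42 members on GRCm38.p6. Those of 3 members that rose (Cldn4, Epcam and F11r) and of the member that fell (Cldn15) are shown as examples of both directions, chosen after their values were seen. Capitals mark CAGGTG on either strand (CACCTG on the printed strand), the E-box that Snail and Zeb repressors of epithelial genes are known to bind. Cldn4 lies at chr5:134946885-134947184 on the minus strand, Epcam at chr17:87635729-87636028, F11r at chr1:171437311-171437610 and Cldn15 at chr5:136967619-136967918, all 3 on the plus strand.
Cldn4: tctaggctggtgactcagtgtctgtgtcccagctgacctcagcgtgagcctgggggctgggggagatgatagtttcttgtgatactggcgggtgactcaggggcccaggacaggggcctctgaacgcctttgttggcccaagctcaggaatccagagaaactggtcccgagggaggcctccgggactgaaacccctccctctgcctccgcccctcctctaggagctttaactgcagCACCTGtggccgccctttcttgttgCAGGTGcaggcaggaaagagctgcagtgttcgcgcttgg
Epcam: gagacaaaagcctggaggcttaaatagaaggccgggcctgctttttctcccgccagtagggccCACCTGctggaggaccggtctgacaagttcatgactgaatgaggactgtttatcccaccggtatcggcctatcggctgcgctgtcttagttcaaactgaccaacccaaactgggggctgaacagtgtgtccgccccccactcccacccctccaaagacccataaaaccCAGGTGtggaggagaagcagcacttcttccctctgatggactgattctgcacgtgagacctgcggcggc
F11r: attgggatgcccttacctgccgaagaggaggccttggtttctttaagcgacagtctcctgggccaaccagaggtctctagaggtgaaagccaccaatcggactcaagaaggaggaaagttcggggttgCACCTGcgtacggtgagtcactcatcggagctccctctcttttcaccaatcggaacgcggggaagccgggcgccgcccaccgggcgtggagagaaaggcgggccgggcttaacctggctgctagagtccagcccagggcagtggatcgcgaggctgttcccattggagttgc
Cldn15: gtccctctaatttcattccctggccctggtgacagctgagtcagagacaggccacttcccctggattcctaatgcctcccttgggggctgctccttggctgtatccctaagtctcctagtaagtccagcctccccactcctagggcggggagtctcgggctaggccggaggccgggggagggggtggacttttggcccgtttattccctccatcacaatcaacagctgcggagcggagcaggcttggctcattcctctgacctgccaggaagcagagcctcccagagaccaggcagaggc
Counted from the first transcribed base as 1, the matches began at -14 and 12 in Cldn4, at -187 and -19 in Epcam and at -122 in F11r, and Cldn15 had 0. Among the other members that rose in a tumour group, Ctnnd1, Jup and Ovol2 also had 0. Marveld2 had 1 match in each window, and Pard3 had 0 in 1 window and 3 in the other. Dsc2, Dsg2, Esrp1 and Grhl2 had no window. Over the members, CAGGTG occurred in 18 of 39 windows and 14 of 26 genes, beside 20.2% of 32851 windows and 22.6% of 27025 genes in the whole table. The GRHL palindrome AACCGGTT, searched on both strands, occurred in 0 of 39 member windows (0.146% of all), and its open form AACNNGTT, which covers the palindrome, in 1 (Cgn; 4.2% of all). The OVOL core CCGTTA occurred in 2 of 39, both of Crb3 (2.76% of all). These 2 windows overlap, and by genes the count was 1 of 26, beside 3.15% of all genes. Windows of a gene that overlap can share a match, for CAGGTG as well. A match is a run of letters and no measured binding site.

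Of the 9 sealing and other claudins tested, the 8 besides Cldn4 did not pass in either comparison. Cldn3 and Cldn7, abundant claudins of simple epithelia, and Cldn8, a barrier claudin, were lowest in normal gland 2. Cldn3 stood at 10.28, 8.05 and 10.55 in normal glands and at 10.38 to 11.30 in the 6 tumours. Cldn7 stood at 7.38, 5.45 and 8.18 in normal glands and at 7.59 to 9.03 in tumours, and Cldn8 at 9.04, 6.53 and 9.61 and at 7.80 to 10.20. Their differences from normal gland over both tumour groups were 1.10, 1.22 and 1.01, and without normal gland 2 they were 0.32, 0.45 and 0.08 (adjusted p = 0.49, 0.44 and 0.94). Cldn3 lies beside Cldn4 on chromosome 5, and only Cldn4 had all tumours above all normal glands.

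Cldn1, which is essential for the barrier of the epidermis, ran the other way in normal gland 2. Its level was 8.05, 10.04 and 8.10 in normal glands, 10.93, 10.85 and 9.98 in non-metastatic tumours and 10.35, 9.17 and 9.87 in metastatic tumours. Normal gland 2 lay within the range of the tumours and the other normal glands below all of them. The difference in non-metastatic tumours was 1.86 ± 0.56 (adjusted p = 0.054) and became 2.51 (adjusted p = 0.019) without normal gland 2. Among the rest, Cldn11, known from myelin and testis, was at 6.81, 6.52 and 6.51 in normal glands, 6.62, 6.41 and 6.87 in non-metastatic and 7.30, 9.42 and 6.58 in metastatic tumours. Metastatic tumour 2 lay far above the other 8 arrays. Cldn6, a claudin of embryonic epithelia, reached 6.51 in metastatic tumour 3 against 4.47 to 5.50 elsewhere. Cldn12 and Cldn23 kept within 7.09 to 7.91 and 6.01 to 6.66 on the 9 arrays.

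**Figure D2:**
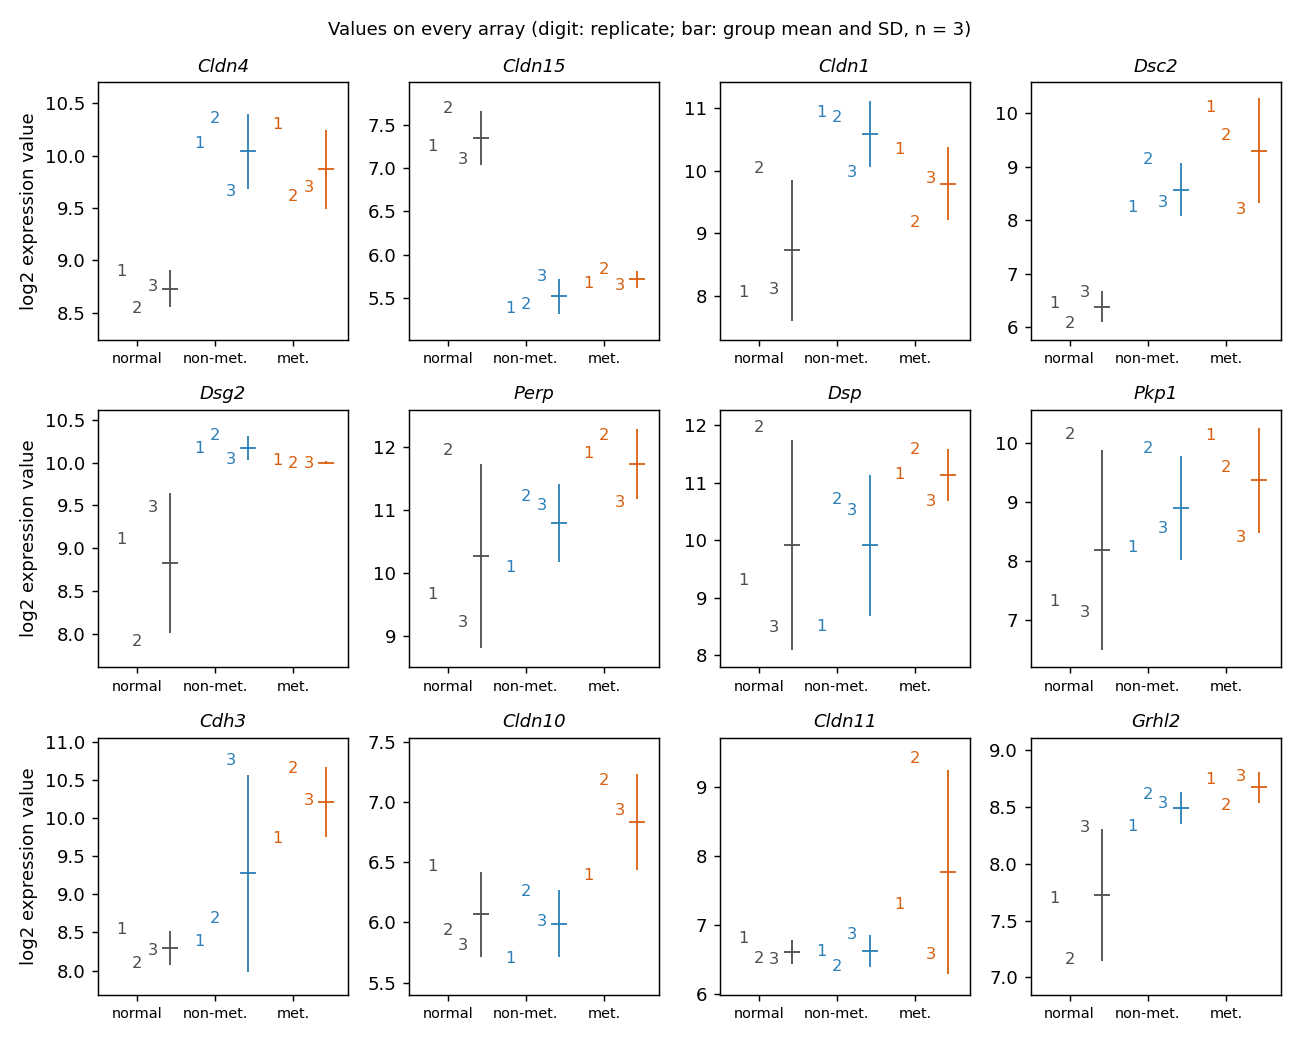
Log2 values (vertical axis) of single genes on every array, by group, with each digit the replicate and the bar the group mean with its SD (n = 3). Cldn15 is lower and Cldn4 and Dsc2 are higher in all 6 tumours than in all 3 normal glands, while normal gland 2 stands away from the other normal glands for Cldn1, Perp, Dsp and Pkp1.

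Among the MARVEL and JAM proteins, all 4 had positive differences in both tumour groups, and 2 passed in limma in the non-metastatic group and 0 in the metastatic group, where 3 had an unadjusted p under 0.05. F11r, which encodes the junctional adhesion molecule JAM-A, was at 9.92, 9.60 and 10.12 in normal glands, 10.72, 10.86 and 10.46 in non-metastatic tumours and 10.54, 10.29 and 10.50 in metastatic tumours. No tumour was as low as a normal gland. The difference in non-metastatic tumours was 0.80 ± 0.16 (1.74-fold, adjusted p = 0.016), and it was lost without normal gland 1 (0.051) or non-metastatic tumour 2 (0.053). In metastatic tumours it was 0.57 ± 0.16 (adjusted p = 0.056).

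Tricellulin (Marveld2), which seals the points where 3 cells meet, had a level of 7.84, 6.74 and 7.77 in normal glands, 9.23, 9.11 and 8.23 in non-metastatic tumours and 8.86, 8.06 and 8.48 in metastatic tumours. The tumours lay above all normal glands, and normal gland 2 was the lowest array. The difference was 1.41 ± 0.38 (2.66-fold, adjusted p = 0.037) in non-metastatic tumours and 1.02 ± 0.38 (adjusted p = 0.11) in metastatic tumours. The former was lost without normal gland 1 (0.062), normal gland 2 (1.06, adjusted p = 0.099), non-metastatic tumour 1 (0.098), non-metastatic tumour 2 (0.11) or metastatic tumour 3 (0.060). For Marveld2, fitting only the compared groups (0.075) also lost the call. Its neighbour on chromosome 13, the occludin gene Ocln, was at 8.51, 7.74 and 8.96 in normal glands, 9.61, 9.60 and 9.09 in non-metastatic and 9.65, 8.99 and 9.26 in metastatic tumours. Again the tumours lay above all normal glands. Ocln passed only with both tumour groups together (0.97 ± 0.27, adjusted p = 0.039). That call was lost without normal gland 1 (0.095) or 2 (difference 0.63, adjusted p = 0.12), non-metastatic tumour 1 (0.068) or 2 (0.074), and metastatic tumour 1 (0.078) or 3 (0.070). Quantile normalisation (0.059) and adding replicate number to the fit (0.054) also lost that call. Marveld3 was at 6.74 in normal gland 2, 7.96 and 8.44 in the others and 8.11 to 8.91 in tumours. It did not pass, and its difference over both tumour groups was 0.93 with normal gland 2 and 0.45 (adjusted p = 0.34) without it.

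None of the 3 scaffolds that tie the strands to actin passed in either comparison, with 0 and 1 at an unadjusted p under 0.05 in limma. Tjp1, which encodes ZO-1, was at 10.79, 10.42 and 10.64 in normal glands, 10.88, 11.19 and 10.82 in non-metastatic and 11.23, 10.81 and 11.03 in metastatic tumours. Every tumour lay above every normal gland, with differences of 0.35 (adjusted p = 0.16) and 0.41 (adjusted p = 0.12). Tjp3 (ZO-3) and cingulin (Cgn) had differences of -0.14 and 0.17 in non-metastatic and -0.16 and 0.19 in metastatic tumours. Both were lowest in normal gland 2, at 7.72 and 8.05. Without that array the differences of Tjp3 were -0.76 and -0.78 (adjusted p = 0.26 and 0.28), and those of Cgn changed sign, to -0.14 and -0.12 (adjusted p = 0.76 and 0.81).

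Epcam, a cell adhesion molecule of simple epithelia that binds claudins, was at 10.92, 9.81 and 11.07 in normal glands, 11.79, 11.85 and 11.48 in non-metastatic tumours and 11.65, 11.36 and 11.66 in metastatic tumours. All tumours lay above all normal glands, and normal gland 2 lay more than 1 unit below the other normal glands. The difference was 1.11 ± 0.31 (2.16-fold, adjusted p = 0.041) in non-metastatic tumours and 0.96 ± 0.31 (adjusted p = 0.076) in metastatic tumours. Without normal gland 2 the former was 0.72 (adjusted p = 0.040). It did not pass without normal gland 1 (0.066), non-metastatic tumour 1 (0.094), 2 (0.11) or 3 (0.058), or metastatic tumour 1 (0.063), 2 (0.057) or 3 (0.064). Nor did it pass after quantile normalisation (0.059), with only the compared groups in the fit (0.094) or with replicate number added (0.058).

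Of the desmosomal cadherins, Dsc2 had the largest rise of all members. This desmocollin is the form found in simple as well as stratified epithelia. Its level was 6.43, 6.06 and 6.65 in normal glands, 8.24, 9.14 and 8.32 in non-metastatic tumours and 10.11, 9.59 and 8.21 in metastatic tumours. The lowest tumour lay well clear of the highest normal gland, and metastatic tumour 3 lay with the non-metastatic tumours. The difference was 2.92 ± 0.47 (7.55-fold, adjusted p = 0.011) in metastatic tumours, kept under 18 of 18 settings, and 2.19 ± 0.47 (4.56-fold, adjusted p = 0.019) in non-metastatic tumours. The latter was lost without normal gland 1 (0.057), normal gland 2 (0.062) or non-metastatic tumour 2 (0.060).

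Dsg2, the desmoglein of simple epithelia, was at 9.10, 7.91 and 9.48 in normal glands, 10.17, 10.32 and 10.04 in non-metastatic tumours and 10.02, 9.99 and 9.99 in metastatic tumours. The tumours fell in a narrow band above all normal glands. The difference was 1.35 ± 0.35 (2.54-fold, adjusted p = 0.032) in non-metastatic tumours and 1.17 ± 0.35 (adjusted p = 0.059) in metastatic tumours. Without normal gland 2 these were 0.88 (adjusted p = 0.020) and 0.71 (adjusted p = 0.041). The call in non-metastatic tumours was lost without normal gland 1 (0.065), non-metastatic tumour 1 (0.071), 2 (0.095) or 3 (0.058), or metastatic tumour 1 (0.053) or 3 (0.054). Fitting only the compared groups (0.084) or adding replicate number to the fit (0.056) lost it too. A second probe set of Dsg2 stayed between 5.04 and 5.40 on all arrays, and with the mean of both the difference was 0.72 (adjusted p = 0.042).

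Dsc3, the desmocollin of basal cells in stratified epithelia, was at 5.76, 10.66 and 6.01 in normal glands. It was at 6.32, 6.44 and 7.56 in non-metastatic and 7.44, 8.93 and 7.39 in metastatic tumours. Normal gland 2 exceeded every tumour and the other normal glands lay below every tumour. The difference over both tumour groups was -0.13 ± 1.04 with normal gland 2 and 1.47 (adjusted p = 0.10) without it. In non-metastatic tumours alone it changed sign, from -0.70 to 0.89 (adjusted p = 0.34).

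Desmoplakin (Dsp), which ties desmosomes to keratin, was also highest in normal gland 2, at 9.30, 11.97 and 8.48 in normal glands. The tumours stood at 8.51, 10.72 and 10.52 (non-metastatic) and 11.15, 11.58 and 10.68 (metastatic), a wide range set by non-metastatic tumour 1. Plakophilin 1 (Pkp1), a plaque protein of skin, was at 7.31, 10.15 and 7.13 in normal glands, 8.24, 9.91 and 8.55 in non-metastatic and 10.13, 9.59 and 8.40 in metastatic tumours. Perp, a membrane protein of desmosomes and a known p53 target, was at 9.66, 11.94 and 9.22 in normal glands, 10.08, 11.21 and 11.07 in non-metastatic and 11.89, 12.18 and 11.12 in metastatic tumours. For both genes normal gland 2 lay among or above the tumours, and the other normal glands lay below every tumour. Perp had a difference of 1.46 ± 0.68 (adjusted p = 0.19) in metastatic tumours, which became 2.29 (adjusted p = 0.033) without normal gland 2. Dsp and Pkp1 did not pass with or without that array, at 0.61 and 0.94 over both tumour groups and 1.63 (adjusted p = 0.12) and 1.92 (adjusted p = 0.068) without it. Among the normal glands, the epidermis markers were highest in normal gland 2, as were Dsc3, Dsp, Pkp1, Perp and Cldn1. In tumours this likeness did not hold for all of these genes. Metastatic tumour 2 had the highest Dsc3, Dsp and Perp of the tumours, with an epidermis mean of 6.00. That mean was highest in non-metastatic tumour 2 and metastatic tumour 1, the tumours with the highest Pkp1. Over 15 such markers the mean was 5.68 to 9.59 in normal glands, 5.87 to 7.08 in non-metastatic tumours and 5.87 to 6.54 in metastatic tumours, and their part in these results was not tested.

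**Figure D3:**
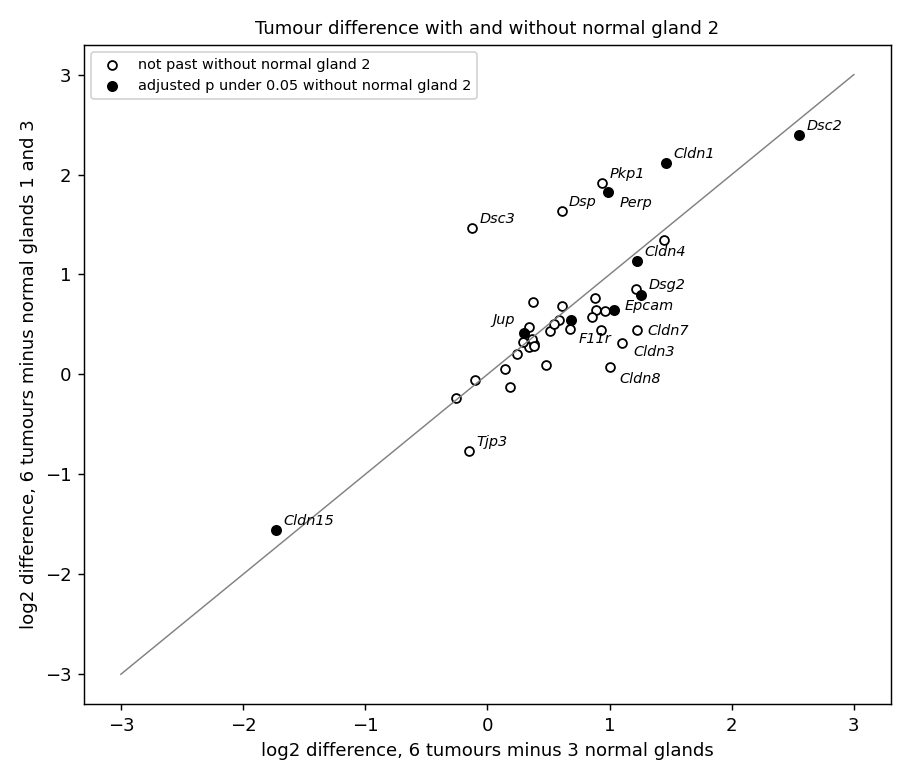
Difference of the 6 tumours from normal gland for each tested gene, with all 3 normal glands (horizontal axis, log2) and with normal glands 1 and 3 only (vertical axis, log2). Dsc3, Dsp, Pkp1, Perp and Cldn1 lie higher without normal gland 2, Cldn3, Cldn7 and Cldn8 lie lower, and Cldn15 (-1.73 and -1.56), Cldn4 (1.23 and 1.13) and Dsc2 (2.55 and 2.39) lie close to the line of equal values.

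Plakoglobin (Jup), shared by desmosomes and adherens junctions, had little spread. Its level was 9.26, 9.63 and 9.33 in normal glands, 9.57, 9.59 and 9.62 in non-metastatic tumours and 9.86, 9.80 and 9.80 in metastatic tumours. The metastatic tumours lay above both other groups. The difference from normal gland was 0.41 ± 0.11 (1.33-fold, adjusted p = 0.048) in metastatic and 0.19 ± 0.11 (adjusted p = 0.27) in non-metastatic tumours. The call was lost when any single array but normal gland 2 was left out (adjusted p 0.060 to 0.14), without the filter (0.059) and after quantile normalisation (0.091). Fitting only the compared groups (0.078) or adding replicate number to the fit (0.090) lost it too. The remaining plakophilins did not pass. Pkp4, found at desmosomes and adherens junctions, was at 8.84 to 9.18 in normal glands and 9.23 to 10.45 in tumours (0.83 ± 0.25, adjusted p = 0.061, in metastatic tumours). Pkp2 and Pkp3 stayed within 8.39 to 9.40 and 7.33 to 8.05 over the 9 arrays.

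**Figure D4:**
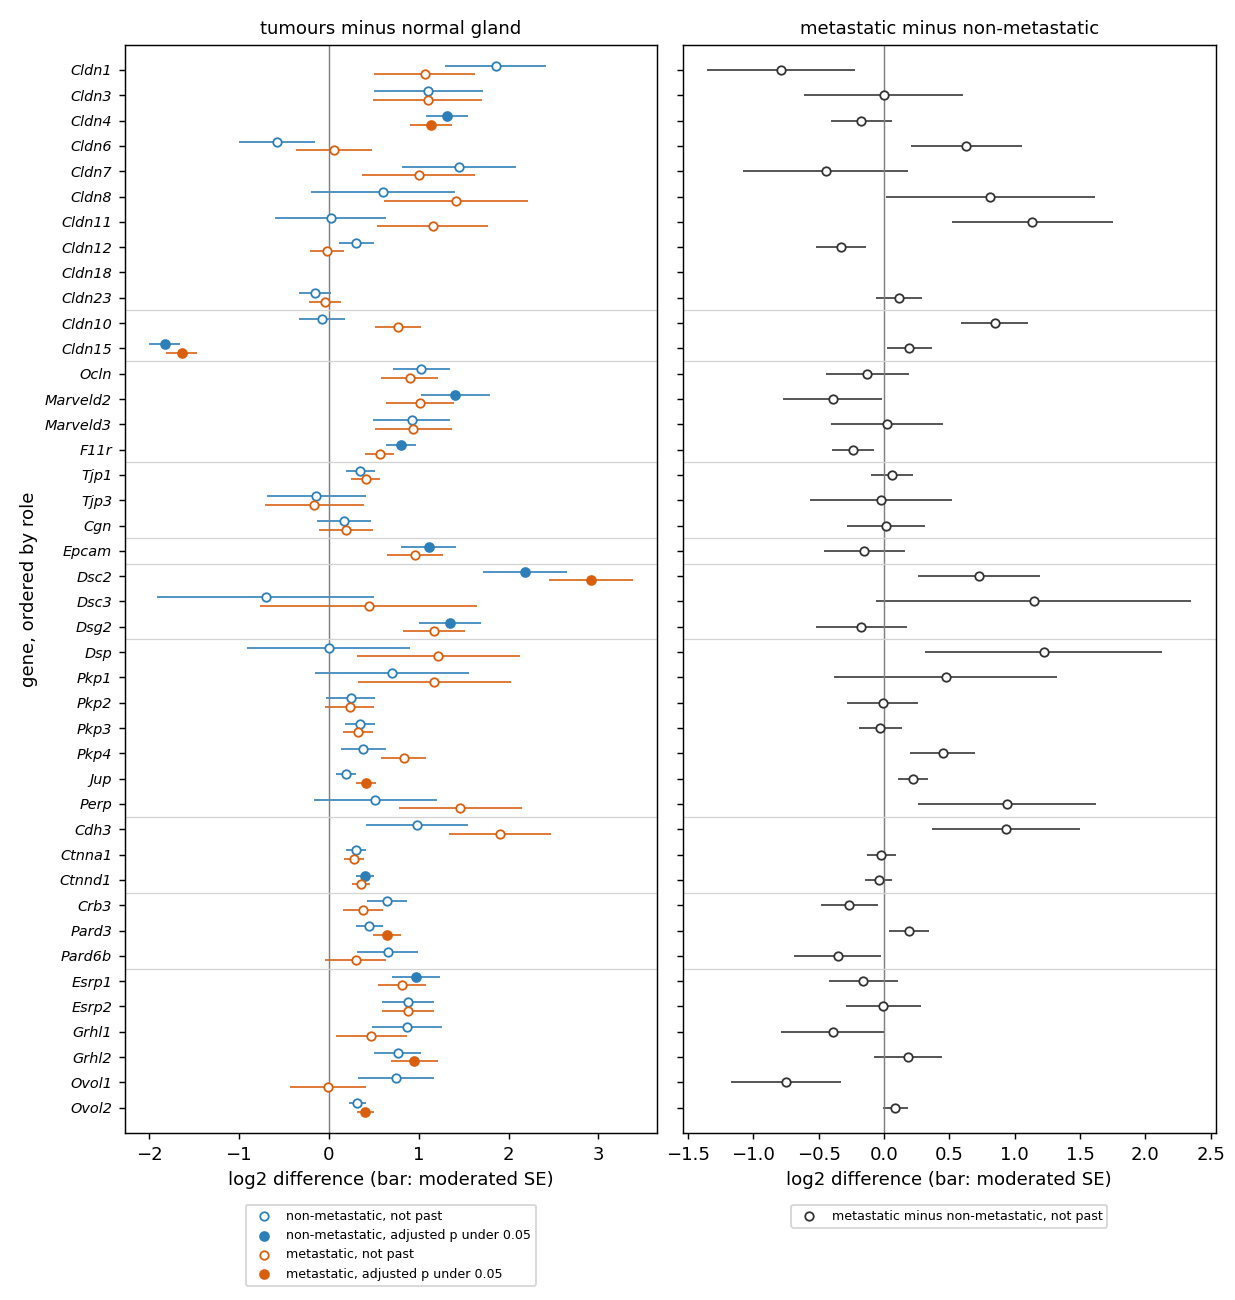
Log2 difference (horizontal axis, with moderated SE) of each gene, ordered by role, for metastatic against non-metastatic tumours and for each tumour group against normal gland, with genes past the threshold marked. Between the tumour groups no gene passes and the points scatter around 0, and against normal gland most points lie to the right, with Cldn15 far to the left at -1.83 and -1.63.

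P-cadherin (Cdh3), the classical cadherin of the myoepithelial layer, varied most within the non-metastatic group. Its level was 8.53, 8.09 and 8.26 in normal glands, 8.38, 8.68 and 10.75 in non-metastatic tumours and 9.73, 10.65 and 10.23 in metastatic tumours. Non-metastatic tumour 3 lay with the metastatic tumours and the other non-metastatic tumours lay with normal gland. The difference from normal gland was 1.91 ± 0.57 in metastatic tumours (adjusted p = 0.060) and 0.98 ± 0.57 (adjusted p = 0.27) in non-metastatic tumours. The former passed without non-metastatic tumour 3 (1.91, adjusted p = 0.0080). The mean of 11 basal and myoepithelial markers was 8.01, 8.56 and 9.55 in the non-metastatic and 9.80, 9.89 and 9.81 in the metastatic tumours. Non-metastatic tumour 3 was again above the other non-metastatic tumours. In normal glands the mean was 9.27, 9.23 and 9.42. Unlike Cdh3, the mean of these markers was thus lower in non-metastatic tumours 1 and 2 than in normal gland. Not every marker followed the mean. Lgr6 and Sparcl1, for example, lay above their normal gland mean in both of these tumours. The catenins stayed close. p120 catenin (Ctnnd1), which holds cadherins at the surface, was at 9.62, 9.37 and 9.58 in normal glands, 9.90, 10.02 and 9.85 in non-metastatic and 9.88, 9.90 and 9.85 in metastatic tumours. The difference was 0.40 ± 0.10 (1.32-fold, adjusted p = 0.031) in non-metastatic tumours and 0.36 ± 0.10 (adjusted p = 0.052) in metastatic tumours. The first was lost without normal gland 1 (0.057) or 2 (0.086), non-metastatic tumour 1 (0.058) or 2 (0.093), or metastatic tumour 1 (0.052) or 3 (0.055), and after quantile normalisation (0.075). Fitting only the compared groups (0.087) or adding replicate number to the fit (0.073) lost it as well. Alpha-catenin (Ctnna1), which links cadherin complexes to actin, was at 10.59 to 10.83 and 10.97 to 11.19 without overlap and did not pass (0.30, adjusted p = 0.088, and 0.28, adjusted p = 0.12).

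The polarity genes had positive differences in both groups, and 1 of the 3 passed in 1 group. Pard3, a scaffold that positions tight junctions, was at 8.69, 8.60 and 8.78 in normal glands, 8.83, 9.15 and 9.45 in non-metastatic and 9.29, 9.32 and 9.40 in metastatic tumours. All tumours lay above all normal glands. The difference was 0.65 ± 0.15 (1.56-fold, adjusted p = 0.033) in metastatic tumours and 0.45 ± 0.15 (adjusted p = 0.074) in non-metastatic tumours. The call was lost without normal gland 1 (0.089) or 2 (0.098), any metastatic tumour (0.086, 0.077 and 0.10 in order) and after quantile normalisation (0.054). Crb3, an apical transmembrane protein, was at 7.24 to 7.69 in normal glands and 7.49 to 8.32 in tumours. Pard6b, a partner of Pard3, was lowest in normal gland 2 (6.60). Neither passed. The Pard6b difference over both tumour groups was 0.48 with that array and 0.09 (adjusted p = 0.82) without it.

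The Grhl, Ovol and Esrp regulators had positive differences in 6 of 6 cases in non-metastatic and 5 of 6 in metastatic tumours, with 1 and 2 past the threshold. Grhl2, which is known to drive claudin and E-cadherin genes, was at 7.70, 7.16 and 8.32 in normal glands, 8.33, 8.61 and 8.54 in non-metastatic and 8.74, 8.52 and 8.77 in metastatic tumours. Every tumour was above every normal gland, by a small step. The difference was 0.95 ± 0.26 (1.93-fold, adjusted p = 0.048) in metastatic and 0.77 ± 0.26 (adjusted p = 0.075) in non-metastatic tumours, and without normal gland 2 these were 0.67 and 0.48 (adjusted p = 0.10 and 0.17). The call was lost without any single array but normal gland 3 (adjusted p 0.062 to 0.13), without the filter (0.058) and after quantile normalisation (0.062). Fitting only the compared groups (0.081) or adding replicate number to the fit (0.063) lost it as well. Ovol2, a repressor of mesenchymal genes, was at 6.47, 6.39 and 6.34 in normal glands, 6.72, 6.73 and 6.72 in non-metastatic and 6.77, 6.72 and 6.94 in metastatic tumours. The difference of 0.41 ± 0.09 (1.32-fold, adjusted p = 0.032) in metastatic tumours, which all lay above normal gland, was lost without normal gland 1 (0.068), 2 (0.083) or 3 (0.053), or metastatic tumour 1 (0.081), 2 (0.056) or 3 (0.11). With only the compared groups in the fit (0.055) or with replicate number added (0.074), Ovol2 did not pass there either. In non-metastatic tumours the difference was 0.32 ± 0.09 (adjusted p = 0.0503).

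Esrp1, an epithelial splicing factor, was at 9.16, 8.77 and 9.86 in normal glands, 10.20, 10.42 and 10.08 in non-metastatic and 10.27, 9.80 and 10.15 in metastatic tumours. The non-metastatic tumours lay above all normal glands, while metastatic tumour 2 lay just under normal gland 3. The difference was 0.97 ± 0.27 (1.96-fold, adjusted p = 0.040) in non-metastatic and 0.81 ± 0.27 (adjusted p = 0.080) in metastatic tumours. The first was lost without normal gland 1 (0.11) or 2 (0.10), non-metastatic tumour 1 (0.081), 2 (0.12) or 3 (0.062), metastatic tumour 1 (0.058) or 3 (0.063), and after quantile normalisation (0.060). For Esrp1, fitting only the compared groups (0.083) or adding replicate number to the fit (0.064) also lost the call. Esrp2, its relative, was at 8.35, 8.41 and 9.20 in normal glands, 9.87, 9.67 and 9.08 in non-metastatic and 9.84, 9.30 and 9.45 in metastatic tumours. Normal gland 3 lay within the range of the tumours. Esrp2 passed with both tumour groups together (0.88 ± 0.25, adjusted p = 0.038), a call lost without normal gland 1 (0.14) or 2 (0.14), non-metastatic tumour 1 (0.063) or 2 (0.072), or metastatic tumour 1 (0.077) or 3 (0.066). Quantile normalisation (0.063) and adding replicate number to the fit (0.075) lost this call too. Grhl1, an epidermal relative of Grhl2, had differences of 0.87 (adjusted p = 0.16) and 0.48 (adjusted p = 0.45), and of 0.66 and 0.26 without normal gland 2 (adjusted p = 0.38 and 0.76). Ovol1, a relative of Ovol2, was at 5.56, 7.12 and 6.53 in normal glands, 7.15, 7.55 and 6.75 in non-metastatic and 6.98, 6.00 and 6.22 in metastatic tumours. The groups overlapped, with differences of 0.75 (adjusted p = 0.25) and -0.01, and 1.11 and 0.35 without normal gland 2.

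Between metastatic and non-metastatic tumours, 0 of the 41 members passed in limma in either direction, beside 0.00572% of all genes, which is 1 gene. At an unadjusted p under 0.05 there was 1 member, Cldn10, beside 5.07% of genes. Cldn10 and Jup lay higher and Dsg2 lower in metastatic tumours without overlap, beside 4.41% and 5.84% of genes that did so. The median difference was -0.0037, beside -0.02 over all genes. The 95% intervals allowed sizeable differences in either direction for several genes, for example -0.87 to 3.31 for Dsp (difference 1.22), -0.63 to 2.51 for Perp (0.94) and -2.09 to 0.51 for Cldn1 (-0.79). They were narrower for others, such as -0.71 to 0.37 for Cldn4, -0.86 to 0.56 for Epcam and -0.27 to 0.19 for Ctnnd1. The role groups did not lie alike, and none of them was tested as a group. The median difference was 0.73 for the 3 desmosomal cadherins (2 positive) and 0.45 for the 7 genes of the desmosomal plaque with Perp (5 positive). It was -0.18 for the 4 MARVEL and JAM proteins (1 positive) and -0.27 for the 3 polarity genes (1 positive, Pard3). Of all 17478 genes tested, 7982 were positive. A median of 3 genes is the value of a single gene, Dsc2 for the cadherins and Crb3 for polarity, and Dsg2 went the other way from Dsc2. The basal and myoepithelial markers had a median difference of 1.03 in the same comparison, with 0 of 11 past the threshold and 6 at an unadjusted p under 0.05. Their part in the desmosomal differences was not tested.

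By the median, the members also varied more between single tumours than all genes tested. The range over the 6 tumours had a median of 0.82 for the 42 members, Cldn18 included, and 0.52 for all genes tested. It exceeded 1 for 18 of the 42, beside 19.7% of genes tested. Other members, among them Ctnnd1, Ctnna1, Ovol2 and Jup, had ranges below the median of all genes. Dsp had the widest range, 8.51 in non-metastatic tumour 1 to 11.58 in metastatic tumour 2, followed by Cldn11, Dsc3, Cldn8 and Cdh3. The median SD within groups was 0.41, 0.29 and 0.32 for members in normal gland, non-metastatic and metastatic tumours, beside 0.19, 0.19 and 0.14 for all genes.

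**Figure D5:**
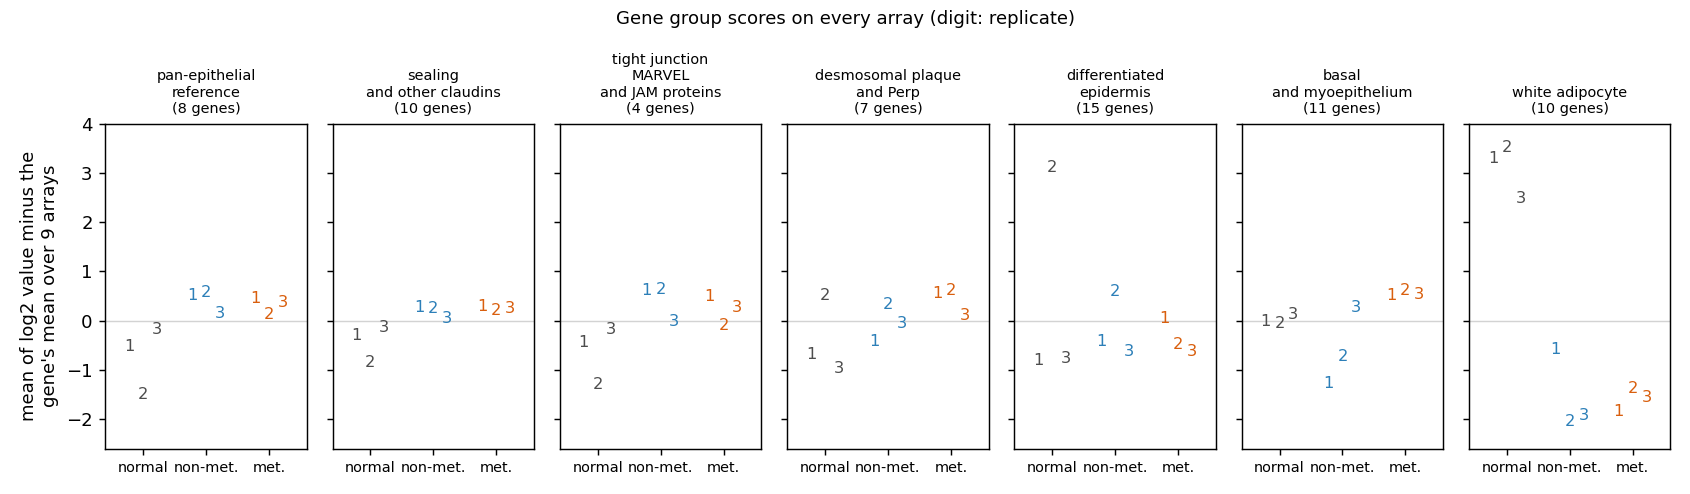
Mean over the genes of a group of the log2 value minus the mean of each gene over the 9 arrays (vertical axis, log2), on every array by group, with digits for replicates. Normal gland 2 is lowest for the simple epithelial genes (-1.49) and highest for differentiated epidermis (3.10), and the basal and myoepithelial genes are lowest in non-metastatic tumours 1 and 2 (-1.27 and -0.72).

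Other genes of the same structures were read from lists that hold none of the 42 and were chosen with earlier results of these data known. E-cadherin (Cdh1), the cadherin of epithelial adherens junctions, was at 10.43, 10.03 and 10.86 in normal glands and between 11.53 and 11.73 in all 6 tumours, with differences of 1.15 ± 0.19 in both groups (adjusted p = 0.0094 and 0.012). It was 1 of 2 genes of 13 on the adherens junction list that rose in each tumour group, the other being Plekha7 (0.99 and 1.32). Of 28 other tight junction genes tested, 2 rose and 4 fell in non-metastatic tumours, and 4 rose and 2 fell in metastatic tumours. Beside the counts of each list in this paragraph, 11.2% of all genes rose and 7.6% fell in non-metastatic tumours. In metastatic tumours these shares were 7.35% and 6%. The coxsackie and adenovirus receptor Cxadr (1.26 and 1.05) and the tricellular protein Lsr (1.22 and 1.06) rose in both. Jam2, a junctional adhesion molecule of endothelium, fell by 2.57 and 2.07, and Cldn22 fell by 0.76 and 0.83. Of 19 polarity genes, 4 rose and 1 fell (Pard3b, by 1.34) in non-metastatic tumours, and 4 rose in metastatic tumours, Dlg5 (0.63 and 0.70), Lin7c and Patj in both. Of 10 other epithelial regulators, Elf3 rose in both (1.81 and 1.72), Tfap2a in non-metastatic (1.41) and Klf5 in metastatic tumours (1.74). Of 4 further desmosomal and cornified junction genes tested, 0 passed in limma in either comparison, and 0 had an unadjusted p under 0.05, beside 34.4% and 30.5% of all genes. These tests include normal gland 2, which was far above the other normal glands for each of them, as for Dsg3 (5.09, 9.03 and 4.58). For Dsg3, Ppl and Evpl, normal glands 1 and 3 lay below every tumour. For Dsg1a they lay among the tumours. Tests of these genes without that array are not given here.

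The 8 simple epithelial genes had median differences from normal gland of 1.15 (3 past the threshold) and 1.06 (2 past) in the same comparisons. Of all genes, 11.2% and 7.35% rose. The members were therefore also set against the simple epithelial genes. Their mean on each array was subtracted from every gene of that array. On this scale the median of all genes was -1.10 and -1.01, and that of the members to -0.54 and -0.28. Then 0 members were higher in non-metastatic tumours and 1, Dsc2, in metastatic tumours (1.87 ± 0.46, adjusted p = 0.0078), beside 0.149% and 0.349% of genes. No member was higher in metastatic tumours without metastatic tumour 1, and 3 were without normal gland 2. Members lower numbered 6 and 5, beside 64.4% and 53.7% of genes, with Cldn15 at -2.97 ± 0.45 (adjusted p = 0.00012) and -2.68 ± 0.45 (adjusted p = 0.00044). The number lower in non-metastatic tumours was 20 without normal gland 3 and 3 and 2 without non-metastatic tumours 1 and 2. In metastatic tumours it was 2 and 14 without normal glands 1 and 3, 2 without non-metastatic tumour 1 and 1, 1 and 2 without metastatic tumours 1, 2 and 3. Shares of all genes with an array left out are not given here. Between the tumour groups 0 members passed in limma on this scale (0.0286% of genes) and 2 had an unadjusted p under 0.05 (1.85% of genes); 1 was higher without non-metastatic tumour 3.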

How the data were processed

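The submitters put labelled RNA of 9 mice on Mouse Gene 2.0 ST arrays. The deposited table holds log2 values of 41345 probe sets, made by the authors with RMA per the submitters' processing notes. The version, probe set level and build behind them are not given in the sources used here. Of the probe sets, 23521 had 1 gene symbol, 1814 had several and 16010 were not listed. The probe set with the highest mean stood for a gene, and no further normalisation was made. The filter asked for a value over the 30th percentile of the array in 3 or more arrays (4702 genes were removed). Groups came from the sample titles. The 9 arrays were fitted together, with a mean for each group, in limma 3.58.1 in R 4.3.3 (6 residual degrees of freedom, eBayes), two-sided, with Benjamini-Hochberg adjustment over the genes tested and a threshold of 0.05. The fit was tested on simulated data. Values on every array were given for members past the threshold in any comparison and for the member of each role with the lowest p between the tumour groups. Cldn1, Cldn3, Cldn7, Cldn8, Dsc3, Pkp1, Perp and others given in more than ranges beyond this rule were chosen after their values were seen. The members, roles and lists were chosen with earlier results of these data known. Promoter windows came from RefSeq. Alternatives tried were other filters, the mean of probe sets, quantile normalisation, median centring, an intensity trend, array weights, fewer groups in the fit, a replicate block, age as a covariate and each array left out. Precision is limited by the number of arrays.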

Additional observations from a re-analysis of the deposited data

How the results depend on the processing

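Between the tumour groups, the count of members past the threshold was 0 in each direction under all 19 alternatives. Cldn15 was the 1 member lower than normal gland under all 18 alternatives run for each tumour group and all run for both together. The counts of members higher than normal gland moved. The shares of all genes under the alternatives of this section are not given here. A moved count is therefore not a result about the members alone. In non-metastatic tumours (8) it was 15 with median centring, 18 with array weights, 3 with the third group left out of the fit and 1 to 15 with 1 array left out. In metastatic tumours (6) it was 3 after quantile normalisation, 10 with median centring, 24 with array weights and 1 to 10 with 1 array left out. For both together (13) it was 27 with array weights and 5 to 17 with 1 array left out. Relative to the simple epithelial genes, array weights gave 2 members higher in metastatic against non-metastatic tumours, and against normal gland 5 higher with 23 lower (non-metastatic) and 8 higher with 21 lower (metastatic). On that scale 1 member was higher in non-metastatic tumours without the filter, the lower counts were 3 (non-metastatic) and 1 (metastatic) with the third group left out, and 2 in metastatic tumours after quantile normalisation. Leaving out 1 array gave 0 to 1, 0 to 1 and 0 to 3 members higher, and 2 to 20 and 1 to 14 lower. Array weights did not always converge.

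Same-numbered arrays of different groups did not deviate together (r -0.28 to 0.17 over 9 pairs, 2 of them over 0.1). With the replicate block, 4 members were higher in non-metastatic, 3 in metastatic tumours and 10 in both together, and 2 were lower relative to epithelial genes in metastatic tumours.

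Some differences that did not pass changed sign. Without normal gland 2, Dsc3 (-0.70 to 0.89), Cldn8 (0.60 to -0.33) and Cgn (0.17 to -0.14) did so in non-metastatic tumours, with Dsp going from about 0 to 1.02, and Cgn (0.19 to -0.12) and Pard6b (0.30 to -0.09) in metastatic tumours. Between the tumour groups, Esrp2 was 0.018 after quantile normalisation and -0.24 to 0.16 with 1 array left out, Ctnnd1 -0.077 to 0.0077, Tjp1 -0.043 to 0.17 and Ocln -0.31 to 0.024. In non-metastatic tumours, Cldn10 was 0.011 after quantile normalisation and 0.013 after median centring (-0.21 to 0.12 with 1 array left out) and Cldn11 -0.17 with array weights (-0.10 to 0.13). In metastatic tumours, Ovol1 was 0.033, 0.056 and 0.71 under those 3 settings, and -0.43 to 0.35 with 1 array left out. The cause was not tested. With 3 mice a group, a member that missed the threshold is not shown to be unchanged.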
